A study of Mus musculus with 4 samples.

Results

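The 8 genes described here encode the enzymes that write, maintain and erase cytosine methylation in DNA, together with the methyltransferase of Polycomb repressive complex 2. They were chosen by name: Dnmt1, Uhrf1, Dnmt3a, Dnmt3b, Tet1, Tet2, Tet3 and Ezh2. All 8 were among the 14082 genes listed in each deposited table, and all 8 were among the 13358 genes that passed a filter on low counts. RNA was sequenced in bulk from CD8 T cells that recognise ovalbumin, sorted out of tumours of E.G7, an ovalbumin-expressing mouse T lymphoma line. The 2 libraries labelled KO came from mice with Cd8-cre and a floxed Smad4 gene (Cd8-cre Smad4-fl/fl), and the 2 labelled WT from mice with the floxed gene alone (Smad4-fl/fl), so both groups carry the floxed allele. The mice were 6 to 10 weeks old, and Cre expression was driven by Cd8. Whether 1 animal or several stand behind each library is not stated, so a p-value here measures only the spread between these libraries, which may be technical.

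In mammalian cells DNMT3A and DNMT3B place methyl groups on unmethylated CpG sites, and DNMT1 copies the pattern onto the daughter strand after replication. UHRF1 binds the hemimethylated CpG that replication leaves behind and recruits DNMT1 to it. The TET proteins oxidise 5-methylcytosine, which opens a route back to unmodified cytosine. EZH2 methylates lysine on histone H3 within Polycomb repressive complex 2 and represses genes of alternative fates. In CD8 T cells these enzymes are known for their part in effector and memory differentiation and in the exhausted state.

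Promoter windows of Dnmt1, Uhrf1 and Ezh2 are shown because each gene holds an E2F word in 1 window. They were chosen with the calls below known, of Dnmt1 and Uhrf1 as higher and of Ezh2 as not called. E2F factors drive genes of DNA replication, and their part in the values below was not tested. The windows are from RefSeq on GRCm38.p6 and run from 250 bases before a transcription start to 50 bases after it, 300 bases in all. The Dnmt1 window, 1 of its 3, is chr9:20952574-20952873 on the minus strand. The Uhrf1 window, 1 of its 2, is chr17:56304063-56304362 on the plus strand. The Ezh2 window is chr6:47594981-47595280 on the minus strand. The other Uhrf1 window, chr17:56303087-56303386, and the other Dnmt1 windows held no E2F word and are not printed. Each is printed 5′ to 3′ on the strand of its gene, with E2F words in capitals.
Dnmt1: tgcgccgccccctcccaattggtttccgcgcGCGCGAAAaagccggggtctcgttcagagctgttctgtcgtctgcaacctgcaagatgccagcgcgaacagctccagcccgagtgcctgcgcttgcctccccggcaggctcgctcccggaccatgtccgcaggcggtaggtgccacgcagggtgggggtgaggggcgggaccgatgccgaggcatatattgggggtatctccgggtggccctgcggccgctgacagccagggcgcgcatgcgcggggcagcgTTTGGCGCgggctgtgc
Uhrf1: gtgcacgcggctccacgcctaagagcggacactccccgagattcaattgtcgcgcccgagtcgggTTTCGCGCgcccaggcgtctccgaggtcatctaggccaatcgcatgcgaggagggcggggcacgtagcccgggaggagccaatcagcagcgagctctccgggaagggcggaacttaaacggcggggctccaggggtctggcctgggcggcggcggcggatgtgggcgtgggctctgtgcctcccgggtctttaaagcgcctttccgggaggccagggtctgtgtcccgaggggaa
Ezh2: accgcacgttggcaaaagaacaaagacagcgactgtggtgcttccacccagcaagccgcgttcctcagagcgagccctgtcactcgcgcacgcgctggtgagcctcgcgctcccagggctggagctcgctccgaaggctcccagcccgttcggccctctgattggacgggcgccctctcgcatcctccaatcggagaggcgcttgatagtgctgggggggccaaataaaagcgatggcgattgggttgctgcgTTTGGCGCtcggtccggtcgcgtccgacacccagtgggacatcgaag
The words searched, on both strands, were TTTCCCGC, TTTCGCGC, TTTGCCGC and TTTGGCGC. Dnmt1 held GCGCGAAA, the reverse complement of TTTCGCGC, at -219 from its start, and TTTGGCGC at 33. Uhrf1 held TTTCGCGC at -185 and Ezh2 held TTTGGCGC at 3, counted to the first letter of the word. Of 32841 windows of this length, 2.27% held any of these words, and of the 14219 windows of genes listed here 3.65% did. All 8 genes matched the RefSeq table, with 13 windows in all, of which 3 windows of 3 genes held an E2F word. Genes with several starts, here Dnmt1, Dnmt3a and Uhrf1, had several windows to search. CAGAC, the short word that SMAD proteins bind, stood in 5 of the 13 windows on either strand, those of Dnmt1, Dnmt3a, Uhrf1, Tet1 and Tet2, against 49.6% of all windows. A match is a description of these letters and not a site of binding.

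Summed counts were 25806382 and 26218277 in the libraries labelled KO and 24366540 and 25790107 in those labelled WT. Smad4, the targeted gene, had 779 and 1088 counts in the libraries labelled KO and 752 and 736 in those labelled WT. It was called neither lower nor higher (log2 fold change 0.19, edgeR quasi-likelihood adjusted p = 0.397), and its CPM overlapped between the groups. The counts of the targeted gene therefore do not bear out the labels, but they cannot decide whether Smad4 was deleted. A count over a whole gene need not fall if only part of it is removed, and other cell types add reads. Directions are given between the labels only. Markers of T cells summed to 1964 and 1952 CPM in the libraries labelled KO and 2960 and 3040 CPM in those labelled WT. Of 10 such markers 9 were listed, Trac not among them, and 7 were called lower. Cd8a had 239 and 248 CPM in the libraries labelled KO and 472 and 455 CPM in those labelled WT. Apart from Cd8a and Cd8b1 these genes are shared by T cells at large, so the sum does not tell CD8 T cells from the tumour line. All 12 markers of monocytes and macrophages were also listed, summing to between 17097 and 18266 CPM in every library. Neutrophil markers summed to 2110 and 2151 CPM in the libraries labelled KO and 739 and 757 CPM in those labelled WT, with 8 of 10 called higher. Dendritic cell markers summed to 338 and 347 CPM in the libraries labelled KO and 232 and 229 CPM in those labelled WT (2 of 8 called higher, 1 lower), and NK cell markers to 15.5 and 17.6 CPM in the libraries labelled KO and 56.1 and 58.9 CPM in those labelled WT (1 of 3 called lower). Erythroid markers summed to 85.1 and 53.1 CPM in the libraries labelled KO and 27.3 and 34.1 CPM in those labelled WT, with 4 of 5 called higher. Of the markers of CD4 T cells 1 of 5 was called higher, of B cells 2 of 5, and of stroma and endothelium 2 of 7, with 1 lower. Mitochondrial genes took 6.57% and 6.99% of counts in the libraries labelled KO and 10.4% and 10.2% in those labelled WT. The part of these other cell types and of the mitochondrial share in the values below was not tested, and fewer cells of a type cannot be told apart from less RNA per cell. Of all genes tested, 10.1% were called higher in the libraries labelled KO and 11.0% were called lower, meaning a Benjamini-Hochberg adjusted p under 0.05 over all genes in edgeR's quasi-likelihood test. The split of calls was 1354 higher and 1472 lower, and 2105 and 1013 when libraries were scaled by their totals alone.

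Levels per length placed the maintenance genes on top. By the FPKM values (fragments or reads per kilobase of gene, scaled to depth) that the authors deposited, the order was Uhrf1, Dnmt1, Ezh2 and Dnmt3a in each of the 4 libraries. Uhrf1 had 36.3 and 38.6 FPKM in the libraries labelled KO and 27.6 and 29.7 FPKM in those labelled WT. Dnmt1 followed at 20.1 and 19.8 FPKM in the libraries labelled KO and 15.4 and 15.3 FPKM in those labelled WT. Ezh2 stood at 6.83 and 5.89 FPKM in the libraries labelled KO and 5.94 and 6.35 FPKM in those labelled WT, above Dnmt3a, whose highest library had 5.24 FPKM. Tet3, Tet2 and Dnmt3b lay together between 1.98 and 2.77 FPKM and changed places from library to library, so their order is within the spread. Tet1 was last in all 4 libraries, at 0.137 and 0.0857 FPKM in the libraries labelled KO and 0.0682 and 0.0499 FPKM in those labelled WT. The plot of FPKM by gene shows a wide step between Tet1 and the other TET genes.

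**Figure D1:**
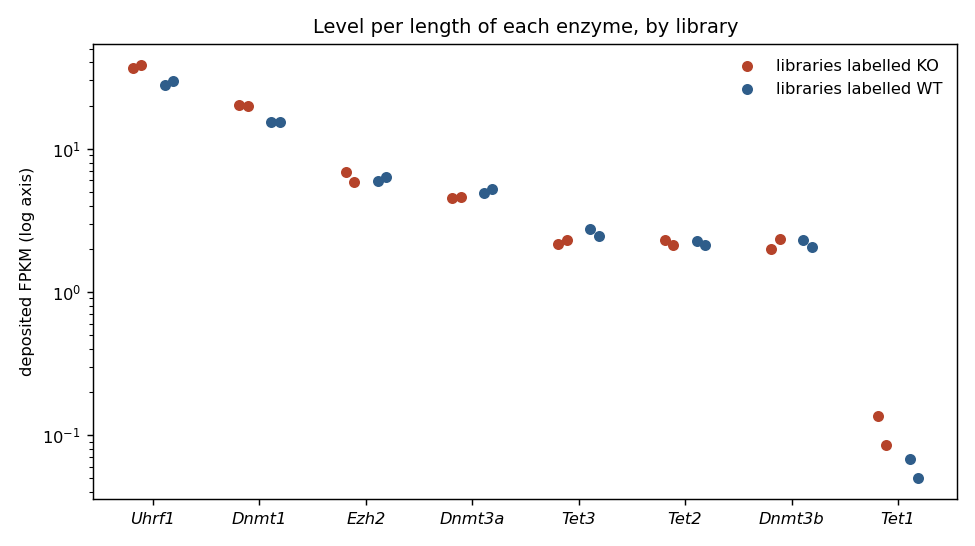
Deposited FPKM (log axis) of the 8 genes in each library, ordered by their mean, with the libraries labelled KO left of those labelled WT. Uhrf1 and Dnmt1 lead in every library, Tet3, Tet2 and Dnmt3b overlap between 1.98 and 2.77 FPKM, and Tet1 stays under 0.14 FPKM.

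Of the 8 genes, edgeR called 2 higher in the libraries labelled KO and 0 lower, and 6 did not pass. The background of higher calls was 10.1%. At an unadjusted p under 0.05, 2 genes were lower (Dnmt3a and Tet3), and DESeq2 and limma-voom called 0 lower. The median log2 fold change of the 8 was 0.02, against -0.0037 over all genes tested. In 5 of the 8 the libraries of the groups did not overlap in CPM, against 59.8% of all genes tested, so that share is near the background.

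Dnmt1 and Uhrf1, the pair that maintains methylation through replication, were the genes called higher. Dnmt1, the maintenance methyltransferase, had 153 and 151 CPM (read counts scaled to library size with TMM factors) in the libraries labelled KO and 119 and 117 CPM in those labelled WT. The libraries of a group nearly coincided and the groups stood apart. The ratio was 1.29-fold (log2 fold change 0.37 ± 0.060, SE, edgeR quasi-likelihood adjusted p = 0.000844). Uhrf1, the hemimethylated-CpG reader and ubiquitin ligase, had 160 and 170.1 CPM in the libraries labelled KO and 122 and 131 CPM in those labelled WT. Again both libraries labelled KO were above both labelled WT. Its ratio was 1.30-fold (log2 fold change 0.38 ± 0.065, SE, edgeR quasi-likelihood adjusted p = 0.00125). Both calls held under each of the 10 alternatives, with log2 fold changes of 0.36 to 0.46 for Dnmt1 and 0.33 to 0.46 for Uhrf1. Dnmt1 spans 20907209 to 20959888 of chromosome 9 (minus strand) and Uhrf1 56303321 to 56323486 of chromosome 17 (plus strand) (mm10, GENCODE M21), and neither has exons overlapping another annotated gene.

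**Figure D2:**
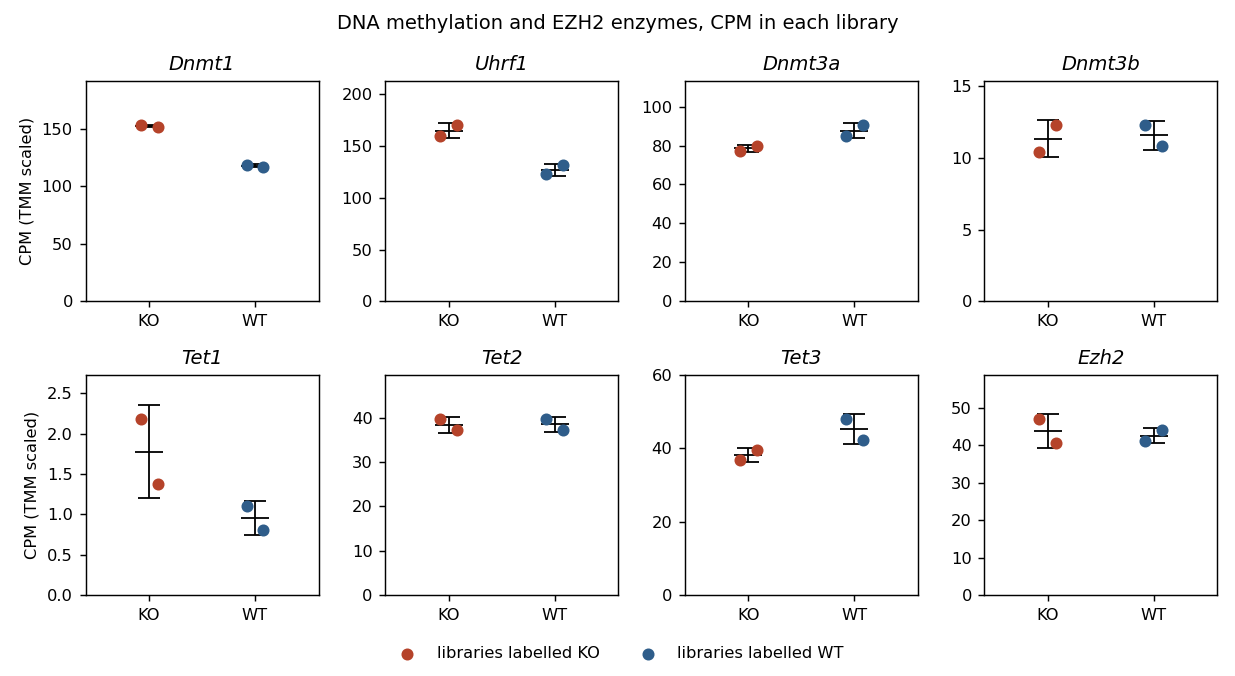
CPM (TMM scaled, axes from 0) of each of the 8 genes, with points for libraries, a short line for the mean and bars for the SD (n = 2 per group), KO left of WT. Dnmt1 and Uhrf1 are higher in both libraries labelled KO, at 151 CPM or more and 160 CPM or more, while Dnmt3b, Tet2 and Ezh2 overlap between the groups.

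The pair kept its proportion. Within a library, where scaling between libraries plays no part, Uhrf1 had 1.04 and 1.12 counts for each Dnmt1 count in the libraries labelled KO and 1.03 and 1.12 in those labelled WT. These ranges coincide, and the spread within a group exceeds any difference between groups. Genes of DNA replication were higher in the same libraries: the 34 listed, among them the helicase genes Mcm2 to Mcm7, summed to 3950 and 3938 CPM in the libraries labelled KO and 3242 and 3256 CPM in those labelled WT. Set against that sum, Dnmt1 had 38.7 and 38.4 counts per 1000 replication counts in the libraries labelled KO and 36.6 and 35.9 in those labelled WT. Uhrf1 had 40.4 and 43.2 per 1000 in the libraries labelled KO and 37.8 and 40.3 in those labelled WT, so the groups nearly met. On this scale the log2 ratio of KO to WT was 0.09 for Dnmt1 and 0.10 for Uhrf1, against 0.37 and 0.38 per library. With 2 libraries against 2 an exact two-sided permutation test cannot go below p = 0.333, so these ratios are given without a test.

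Uhrf2, the paralog of Uhrf1, went the other way. It had 37.5 and 34.1 CPM in the libraries labelled KO and 71.9 and 65.4 CPM in those labelled WT. The groups were far apart, and the fall was 1.92-fold (log2 fold change -0.94 ± 0.094, SE, edgeR quasi-likelihood adjusted p = 1.62e-05). For each Uhrf2 count there were 4.25 and 4.98 Uhrf1 counts in the libraries labelled KO and 1.70 and 2.01 in those labelled WT, a ratio chosen after the values of Uhrf2 were seen. Uhrf2 also binds modified CpG but is not known to replace Uhrf1 in maintenance.

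Other genes of maintenance and of reading methyl-CpG included calls in both directions. Of 21 tested, 2 rose and 4 fell, with a median log2 fold change of -0.13. Over all genes tested, 10.1% were called higher and 11.0% lower, which is the background for this list and for each list below. The count of rises here is near that share. Cdca7, a partner of the remodeller HELLS, rose to 74.4 and 72.7 CPM in the libraries labelled KO, against 45.4 and 47.7 CPM in those labelled WT (log2 fold change 0.66, edgeR adjusted p = 0.000105). Pclaf, a PCNA-binding factor, rose by 0.23 on the log2 scale (edgeR adjusted p = 0.0183), a call that leaving out WT replicate 1 or WT replicate 2 ended (edgeR adjusted p = 0.144 and 0.0655). Hells itself, the remodeller needed for methylation of repeats, had a log2 fold change of 0.25 (edgeR adjusted p = 0.120). Beside Uhrf2, the genes that fell were the methyl-CpG binding protein gene Mbd2 (log2 fold change -0.53), the deubiquitinase gene Usp7 (-0.29) and Zbtb38 (-0.26), with edgeR adjusted p = 0.0433, 0.0489 and 0.0499. These 3 stood close to the threshold and were named after their values were seen. Without WT replicate 1 or 2, 1 gene of the list was higher and 1 lower. DESeq2 called 1 lower, and scaling by library totals gave 5 higher and 1 lower.

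The de novo methyltransferase genes showed no call. Dnmt3a, on chromosome 12 from 3806007 to 3914443, had 77.3 and 79.7 CPM in the libraries labelled KO and 84.9 and 90.5 CPM in those labelled WT. Both libraries labelled KO were below both labelled WT, and the gap between the groups was slightly smaller than the spread within the libraries labelled WT. The log2 fold change of -0.16 (95% confidence interval -0.32 to -0.0016) did not pass over all genes (edgeR adjusted p = 0.149). With library totals alone as the scaling it was -0.075. Dnmt3b, on chromosome 2 from 153649450 to 153687730, had 10.4 and 12.3 CPM in the libraries labelled KO and 12.3 and 10.8 CPM in those labelled WT. Its groups overlapped fully, and the interval of the log2 fold change ran from -0.41 to 0.36 (edgeR adjusted p = 0.938). Against Dnmt1 in the same library, Dnmt3a counts were 0.505 and 0.526 in the libraries labelled KO and 0.717 and 0.775 in those labelled WT. The Dnmt3a to Dnmt1 ratio was therefore lower in both libraries labelled KO, and this does not depend on the scaling between libraries. Exons of Dnmt3a overlap the opposite-strand gene Dnmt3aos, and since the strandedness of the counts is not given in the sources used here, reads of both cannot be told apart.

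**Figure D3:**
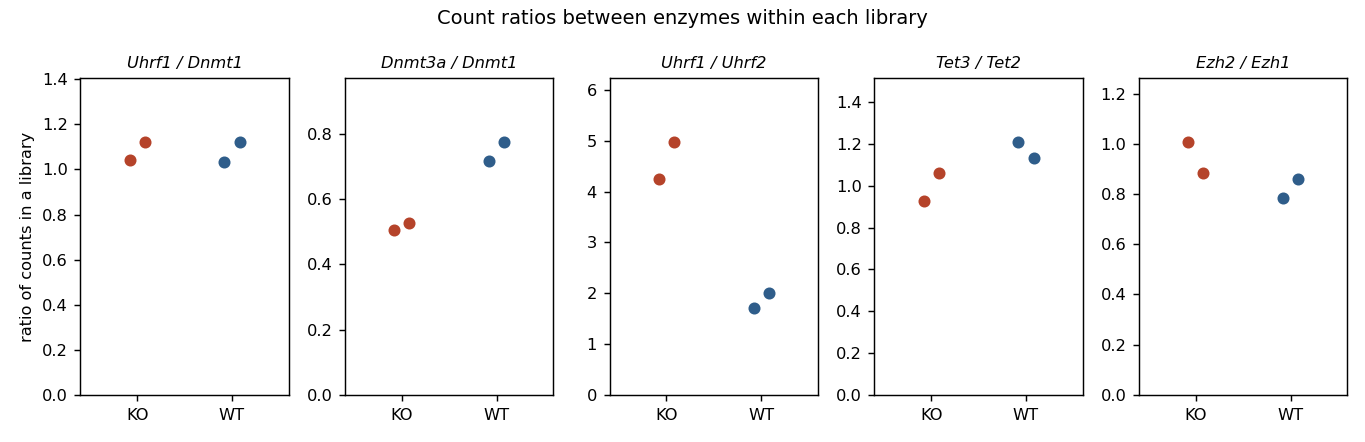
Ratio of counts between paired genes within each library (axes from 0, 1 point per library), KO left of WT. The Uhrf1 to Dnmt1 ratio is alike in both groups (1.03 to 1.12), while Dnmt3a to Dnmt1 is lower (0.505 and 0.526 against 0.717 and 0.775) and Uhrf1 to Uhrf2 higher (4.25 and 4.98 against 1.70 and 2.01) in the libraries labelled KO.

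None of the TET dioxygenase genes was called. Tet2, which lacks the CXXC DNA-binding domain of its relatives and is often mutated in blood cancers, had 39.8 and 37.2 CPM in the libraries labelled KO and 39.7 and 37.3 CPM in those labelled WT. The groups coincided, with a 95% confidence interval of the log2 fold change from -0.22 to 0.22 (edgeR adjusted p = 0.994). Tet3 had 36.9 and 39.5 CPM in the libraries labelled KO and 48.0 and 42.3 CPM in those labelled WT. Both libraries labelled KO were lower, but the libraries labelled WT differed by more than the gap between the groups. An interval of -0.46 to -0.018 surrounded the log2 fold change of -0.24 (edgeR adjusted p = 0.123). Tet3 counts per Tet2 count were 0.929 and 1.06 in the libraries labelled KO and 1.21 and 1.13 in those labelled WT, so the groups did not overlap but came close. Tet1 rested on 58 and 37 counts in the libraries labelled KO and 26 and 20 in those labelled WT. Both libraries labelled KO were above both labelled WT, yet at this depth the interval of the log2 fold change, 0.90, reached from -0.23 to 2.03 (edgeR adjusted p = 0.257). All 3 are on the minus strand, Tet1 at 62804570 to 62908996 of chromosome 10, Tet2 at 133463679 to 133545139 of chromosome 3 and Tet3 at 83362373 to 83459084 of chromosome 6. Exons of Tet2 overlap the opposite-strand gene Gm42567, so its counts are uncertain in the same way as those of Dnmt3a.

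Genes that act on oxidised bases or with TET proteins included 4 that rose and 0 that fell of 21 tested, with a median log2 fold change of 0.18. Before adjustment 2 fell at p under 0.05, and DESeq2 and limma-voom each called 0 lower. Without KO replicate 1 or without KO replicate 2, 1 was lower, and scaling by library totals gave 7 higher. Gadd45a, a stress-induced gene linked to active demethylation, rose to 46.9 and 43.2 CPM in the libraries labelled KO, against 19.0 and 21.5 CPM in those labelled WT. That is 2.22-fold (log2 fold change 1.15 ± 0.11, SE, edgeR quasi-likelihood adjusted p = 1.50e-05). Gadd45a overlaps another annotated gene on the opposite strand, so its counts are uncertain in the same way as those of Tet2. The repair genes Parp1 and Ung rose by 0.32 and 0.36 on the log2 scale (edgeR adjusted p = 0.00404 and 0.0131), calls lost without WT replicate 2 (edgeR adjusted p = 0.0502 and 0.127). The DNA ligase gene Lig3 made up the 4 (log2 fold change 0.38, edgeR adjusted p = 0.0427), though it overlaps Rffl on the opposite strand and is uncertain, and without WT replicate 2 just 1 gene of the list was called. Tdg, the glycosylase that removes the products of TET oxidation, had a log2 fold change of 0.09 (edgeR adjusted p = 0.507) and overlaps Glt8d2 on the opposite strand. Ogt, a TET-binding sugar transferase, had a log2 fold change of -0.06 (edgeR adjusted p = 0.501).

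Ezh2, the histone methyltransferase, was not called. It had 47.1 and 40.7 CPM in the libraries labelled KO and 41.2 and 44.0 CPM in those labelled WT. The groups overlapped, and the 95% confidence interval of the log2 fold change, 0.04, ran from -0.18 to 0.26 (edgeR adjusted p = 0.825). Its promoter window holds an E2F word, as do 1 of the 3 windows of Dnmt1 and 1 of the 2 windows of Uhrf1. Against the replication genes, Ezh2 was lower in both libraries labelled KO. So were Dnmt3a, Dnmt3b, Tet2 and Tet3, with log2 ratios of -0.44, -0.31, -0.28 and -0.52. Those of Dnmt1, Uhrf1 and Tet1 were 0.09, 0.10 and 0.62. The replication sum was itself higher in the libraries labelled KO, so a gene with level CPM falls on this scale. Ezh2 had 11.9 and 10.3 counts per 1000 replication counts in the libraries labelled KO and 12.7 and 13.5 in those labelled WT. Its log2 ratio was -0.24. Its paralog Ezh1, which prevails in resting cells, had 46.7 and 46.0 CPM in the libraries labelled KO and 52.5 and 51.2 CPM in those labelled WT (log2 fold change -0.16, edgeR adjusted p = 0.221). There were 1.01 and 0.885 Ezh2 counts per Ezh1 count in the libraries labelled KO and 0.785 and 0.859 in those labelled WT, without overlap but within a narrow range. Ezh2 spans 47530139 to 47595341 of chromosome 6 (minus strand), and its exons overlap the opposite-strand gene Gm26625, so reads of that gene cannot be told apart from it.

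The partners of Ezh2 in Polycomb repressive complex 2 moved apart from each other. Of 11 tested subunit genes, 2 rose and 2 fell, with a median log2 fold change of -0.16. Phf19, a Polycomb-like subunit that binds methylated lysine on histone H3, rose to 24.8 and 23.2 CPM in the libraries labelled KO, against 14.8 and 16.4 CPM in those labelled WT. The log2 fold change was 0.62 (edgeR adjusted p = 0.00538), lost without WT replicate 1 (edgeR adjusted p = 0.0673), where 0 of the list were higher. Rbbp7, a histone-binding core subunit, rose by 0.25 on the log2 scale (edgeR adjusted p = 0.00802), and is uncertain because it overlaps Txlng on the opposite strand. Jarid2 and Aebp2, which belong to the other form of the complex, fell. Jarid2 had 77.2 and 74.3 CPM in the libraries labelled KO and 103.8 and 104.9 CPM in those labelled WT (log2 fold change -0.46, edgeR adjusted p = 0.000463). Aebp2 had 28.0 and 29.1 CPM in the libraries labelled KO and 46.3 and 45.3 CPM in those labelled WT (log2 fold change -0.68, edgeR adjusted p = 0.000384). The core genes Eed and Suz12 had log2 fold changes of -0.25 and -0.14 and Rbbp4, which overlaps Sync on the opposite strand, of -0.062, none of them called (edgeR adjusted p = 0.0724, 0.474 and 0.523). Eed and Suz12 each overlap another annotated gene on the opposite strand as well and are uncertain. Without KO replicate 2 the call on Eed passed (edgeR adjusted p = 0.0118), and 4 of the list were lower.

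Genes of Polycomb repressive complex 1, which acts beside the EZH2 complex, and genes that oppose both were counted too. Of 20 tested genes of complex 1, 3 fell and 0 rose, against 11.0% lower and 10.1% higher over all genes tested. The median log2 fold change of the 20 was -0.073, with 8 genes above 0 and 12 below, so no shared direction is read from these calls. By unadjusted p the count of rises was 0 as well, and DESeq2 and limma-voom gave 0. Kdm2b and Phc3 fell by 0.28 and 0.39 on the log2 scale (edgeR adjusted p = 0.0222 and 0.0336). Both calls ended without WT replicate 1 (edgeR adjusted p = 0.215 and 0.312) and when scaled by library totals (edgeR adjusted p = 0.0920 and 0.0845), and Kdm2b overlaps Rnf34 on the opposite strand and is uncertain. For Phc3 leaving out WT replicate 2 did so too (edgeR adjusted p = 0.0690), as did DESeq2 (adjusted p = 0.0540). Of 13 tested histone demethylase and trithorax genes, 6 fell and 0 rose (rises were again 0 by unadjusted p and by the other tools), with a median of -0.22, and 2 or 3 fell without WT replicate 1 or 2 and 3 with library totals alone. Kmt2a, a methyltransferase of active promoters, fell to 32.9 and 35.6 CPM in the libraries labelled KO, against 57.8 and 54.6 CPM in those labelled WT (log2 fold change -0.71, edgeR adjusted p = 0.000181). Its exons overlap another annotated gene on the opposite strand, so it is uncertain. Kmt2d and Kmt2b fell by 0.26 and 0.61 on the log2 scale (edgeR adjusted p = 0.00657 and 0.0136), both lost without WT replicate 1 (edgeR adjusted p = 0.0793 and 0.116).

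Of 14 tested genes of histone H3 lysine methylation linked to DNA methylation, 3 rose and 1 fell, with a median log2 fold change of 0.05. Cbx5, the heterochromatin protein gene, rose to 102 and 94.3 CPM in the libraries labelled KO, against 69.7 and 69.3 CPM in those labelled WT (log2 fold change 0.50, edgeR adjusted p = 0.000438). The methyltransferase genes Suv39h1 and Suv39h2 rose by 0.42 and 0.72 on the log2 scale (edgeR adjusted p = 0.0146 and 0.0112). Suv39h1 overlaps another annotated gene on the opposite strand and is uncertain. The Suv39h1 call ended on leaving out WT replicate 2 (edgeR adjusted p = 0.105), and that of Suv39h2, which overlaps Dclre1c and is uncertain, on leaving out WT replicate 1 or WT replicate 2 (edgeR adjusted p = 0.0887 and 0.0605). Nsd3, which methylates another lysine of histone H3, was the gene that fell (log2 fold change -0.24, edgeR adjusted p = 0.0242), a count of 0 without WT replicate 1 or 2 and with library totals alone. The count of rises was 1 without WT replicate 2, and 5 on leaving out KO replicate 2 or scaling by library totals.

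Genes listed for the supply of the methyl group that these enzymes use were called in 1 direction. Beside genes of the folate and methionine cycles, the list holds the amino acid transport genes Slc7a5 and Slc3a2 and the Ahcy-like Ahcyl1 and Ahcyl2. Of 15 tested, 7 were higher and 0 lower, with a median log2 fold change of 0.28, and 4 were higher without WT replicate 1. By unadjusted p, by DESeq2 and by limma-voom the falls were likewise 0. Shmt1 and Shmt2, the serine hydroxymethyltransferase genes, rose by 0.65 and 0.32 on the log2 scale (edgeR adjusted p = 0.000205 and 0.00159), but each overlaps another listed gene on the opposite strand and is uncertain. Ahcyl2 rose to 91.5 and 97.4 CPM in the libraries labelled KO, against 73.6 and 69.0 CPM in those labelled WT (log2 fold change 0.41, edgeR adjusted p = 0.00208). Mat2a, which makes the methyl donor S-adenosylmethionine, had 221 and 228 CPM in the libraries labelled KO and 225 and 216 CPM in those labelled WT and was not called (edgeR adjusted p = 0.781). Ahcyl2 and Mat2a each overlap another annotated gene on the opposite strand too and are uncertain.

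Genes of the cell cycle moved in the direction of Dnmt1 and Uhrf1. Of 34 tested replication genes 18 rose and 0 fell, with a median log2 fold change of 0.25, and 10 or 11 rose without WT replicate 1 or 2. Without KO replicate 1, 1 fell. Of 20 tested mitosis genes 8 rose and 0 fell, with a median of 0.24. In both lists falls numbered 0 by unadjusted p, by DESeq2 and by limma-voom, and 13 mitosis genes rose when scaled by library totals. Mcm2, a subunit of the replicative helicase, had 277 and 291 CPM in the libraries labelled KO and 194 and 179 CPM in those labelled WT (log2 fold change 0.61, edgeR adjusted p = 1.65e-05). Cdc6, which loads that helicase, and Rrm2, a ribonucleotide reductase subunit, rose by 0.76 and 0.51 on the log2 scale (edgeR adjusted p = 6.07e-05 and 2.83e-05). Pcna, the sliding clamp to which DNMT1 binds, was not called, with 208 and 202 CPM in the libraries labelled KO and 216 and 219.8 CPM in those labelled WT (edgeR adjusted p = 0.310). Among mitosis genes Plk1, Ccnb1 and Aurkb rose by 0.73, 0.49 and 0.48 on the log2 scale (edgeR adjusted p = 0.000332, 0.000466 and 0.000622). Over the same libraries 3 of 5 listed markers of immature T cells, the lineage of the tumour line, were called higher and 1 lower, and their sum was 114 and 108 CPM in the libraries labelled KO and 127 and 123 CPM in those labelled WT. The called rises were in Ptcra, Arpp21 and Dntt (log2 fold changes 3.37, 0.89 and 0.39, edgeR adjusted p = 0.00111, 0.000583 and 0.0236), and Rag1 and Rag2 were not among the listed genes. Ptcra was scarce, at 2.41 and 2.78 CPM in the libraries labelled KO and 0.295 and 0.200 CPM in those labelled WT. The called fall was in Themis (log2 fold change -0.95, edgeR adjusted p = 8.86e-06). Cd1d1 was not called (log2 fold change -0.37, edgeR adjusted p = 0.101). The part of the tumour line and of the other cell types in these differences was not tested.

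**Figure D4:**
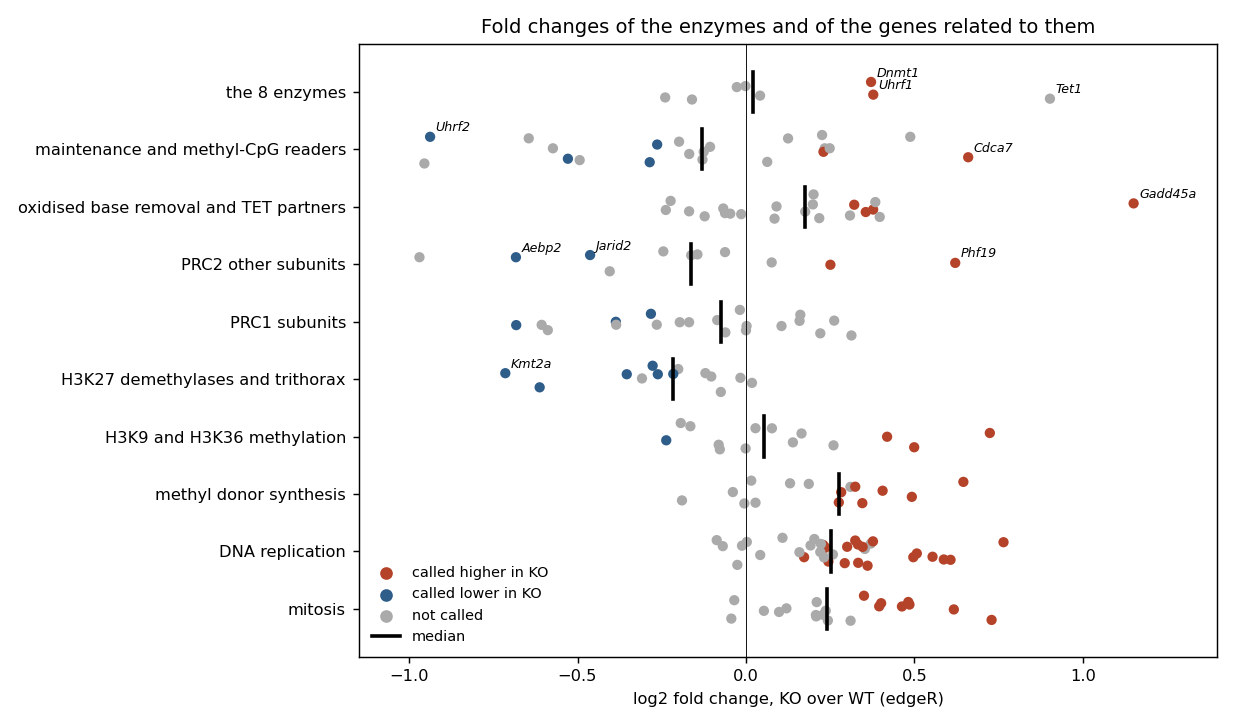
Log2 fold change, KO over WT, of the 8 genes and of the members of 9 related lists, 1 point per tested gene, with the median of each list as a black line. Dnmt1 and Uhrf1 lie at 0.37 and 0.38, beside the medians of DNA replication (0.25) and mitosis (0.24), while Uhrf2 (-0.94) and the histone demethylase and trithorax list (median -0.22) lie on the other side of 0.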

How the data were processed

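The deposited tables give, per the file headers, a whole-number read count and an FPKM value for each gene in each of 4 libraries, and both were used as the authors made them. Bowtie2, featureCounts, Trim Galore 0.4.4, DESeq2, edgeR and the build mm10 appear, per the submitters' processing notes, without roles or order. For the annotation and the strand setting no source used here gives a name. The deposited FPKM values served only to order genes by level per length. The gene lengths they imply matched GENCODE M21 exon lengths within 0.1% for 98.4% of 10686 genes, so positions are from that annotation. The totals behind the FPKM values were 1.06 times the listed counts in both KO libraries and 1.01 times in both WT libraries.

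The quasi-likelihood test (robust glmQLFit, then glmQLFTest) of edgeR 4.0.16 was run in R 4.3.3 with TMM scaling and group as the only term. Low counts were removed by filterByExpr (at least 10 per library and 15 in all), and the test was fitted over all 13358 genes that passed the filter, with Benjamini-Hochberg adjustment over all of them. A call is an adjusted p under 0.05. SEs were derived from log2 fold changes and F statistics, and ± is the SE or SD as named. The common biological variation was 9.31%. Summed counts of 24366540 to 26218277 leave wide intervals for the least abundant genes, such as Tet1. The edgeR step was tested on simulated data. Within groups, libraries differed beyond sampling noise (chi-square per degree of freedom 10.0 for KO and 7.74 for WT), so none were merged. Alternatives were RLE scaling, library totals alone, no filter, the replicate number as a block, each library left out, DESeq2 1.42.0 and limma-voom (limma 3.58.1). The 8 genes and all lists were chosen with earlier results of these data known. Named genes are the 8, Smad4, Ezh1, from each list the 3 called genes with the smallest p and the 2 uncalled genes of highest mean CPM (minimum 5 CPM), and the 2 genes nearest to Dnmt1 and to Tet2 over the 4 libraries; Hells, Tdg, Suz12, Rbbp7, Lig3, Mbd2, Usp7, Zbtb38, Nsd3, Mest and Tex19.1 were added after their values were seen. Not every uncalled gene of that rule is given in full. A called gene of that rule is not reported here.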

Additional observations from a re-analysis of the deposited data

How the results depend on the processing

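All 10 alternatives kept Dnmt1 and Uhrf1 called higher and called no other of the 8 genes. Adjusted p-values ran from 2.15e-05 to 0.00575 for Dnmt1 and from 1.59e-06 to 0.0168 for Uhrf1 (edgeR, DESeq2 or limma-voom). Among the 8 genes, signs turned for Dnmt3b, Tet2 and Ezh2. Dnmt3b became 0.058 with library totals alone and ranged from -0.15 to 0.086 when single libraries were left out. Tet2 became 0.0013 with RLE scaling, 0.084 with library totals alone and 0.0012 with DESeq2, and ranged from -0.051 to 0.045 without single libraries. Ezh2 ranged from -0.067 to 0.14 and Smad4 from -0.063 to 0.40 without single libraries, Smad4 being called higher without KO replicate 1 (edgeR adjusted p = 0.00806). Over the 12 lists of related genes, 46 of 194 were higher and 17 lower, 66 higher and 8 lower with library totals alone, and 28 to 50 higher and 6 to 23 lower without single libraries. Library totals alone moved the median of all genes to 0.082 and the share of higher calls among all calls to 67.5%, against 48.6% with RLE scaling. Over all genes 714 were higher and 831 lower without WT replicate 1, and 837 and 922 without WT replicate 2, against 1354 and 1472. The cause of these shifts was not tested. With library totals alone, uncalled genes turned sign to 0.023 for Ogt, 0.023 for Rbbp4, 0.069 for Smarca4, 0.011 for Smarcb1, 0.0078 for Trim28, 0.057 for Igf2r and 0.083 for Ric8a, which was 0.00029 with RLE scaling and 0.00027 with DESeq2. Yaf2 turned to -0.00034 with the replicate block and -0.0021 with limma-voom. Without single libraries the ranges were -0.10 to 0.0996 for Yaf2, -0.19 to 0.015 for Rnf2, -0.13 to 0.11 for Smarca4, -0.011 to 0.16 for Nsd2, -0.020 to 0.053 for Slc3a2, -0.063 to 0.16 for Slbp, -0.076 to 0.021 for Igf2r, -0.011 to 0.14 for Impact, -0.052 to 0.044 for Ric8a and -0.025 to 0.052 for Nxt2. The replicate numbers did not pair the samples (correlation of same-numbered deviations -0.031). With the replicate number as a block the log2 fold change was 0.37 for Dnmt1 and 0.38 for Uhrf1, no call on the 8 genes changed, and 47 related genes were higher and 19 lower. Leaving out a library leaves 1 in its group, which is then assumed to vary like the other group. CPM per kilobase used the lengths implied by the FPKM values. It could therefore give no other order of the 8 genes and is no check of that order.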

Other observations

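The 3 groups of genes that DNA methylation or the EZH2 complex is known to hold silent were counted. Of 20 germline genes silenced by promoter methylation, 8 were listed and 7 tested, of which Tex19.1 was higher (log2 fold change 1.03, edgeR adjusted p = 0.0423, at a mean of 3.46 CPM) and 0 were lower (edgeR, and also 0 by DESeq2 and by limma-voom, but 2 by unadjusted p). Without KO replicate 1 or KO replicate 2, 1 and 2 were lower, and with the replicate block 1. DESeq2, limma-voom and the fits without KO replicate 1, WT replicate 1 or WT replicate 2 called 0 of the list higher. Piwil2, the most abundant, had 6.24 and 7.004 CPM in the libraries labelled KO and 6.92 and 8.96 CPM in those labelled WT. Of 20 imprinted genes, 14 were listed and 13 tested, with Dhcr7 higher and Mest lower (log2 fold changes 0.38 and -1.74, edgeR adjusted p = 0.00752 and 0.00972), Mest at a mean of 2.23 CPM and uncertain, since it overlaps Copg2 on the opposite strand. Without WT replicate 1 or 2, 0 imprinted genes were lower, and without KO replicate 1, 3 were lower and 2 higher. Of 20 developmental targets of the EZH2 complex, 8 were listed and 5 tested, and 0 were called by edgeR, DESeq2 or limma-voom (1 by unadjusted p). Cdkn2b, a cell cycle inhibitor gene, had 10.2 and 7.67 CPM in the libraries labelled KO and 6.29 and 5.001 CPM in those labelled WT (edgeR adjusted p = 0.0606). It was called higher without KO replicate 2 (log2 fold change 0.85, edgeR adjusted p = 0.00462), under scaling by library totals (edgeR adjusted p = 0.0334) and with the replicate block (edgeR adjusted p = 0.0338).

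Over the 4 libraries, the genes whose centred log2 CPM lay nearest to that of Dnmt1 were Nop58, a ribosome assembly gene, and Lsm3, an RNA-binding protein gene, with root mean square differences of 0.0107 and 0.0113. Those nearest to Tet2, the gene with the largest p of the 8, were Ric8a and Nxt2, at 0.00302 and 0.0127. With 4 libraries such nearness is a description only.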
